A study of Mus musculus with 8 samples.

Results

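Cells of the developing kidney that carried transcripts of the straight proximal tubule, the later portion of the segment that reabsorbs most of the filtrate, were examined in 4 male embryos whose kidney cells were part of 1 pooled library. The cells were chosen by their own expression. A cell was kept if the UMIs (unique molecular identifiers, each a counted transcript) of Aadat, Slc7a12, Slc22a13 and Slc7a13 came to at least 6 and those of Fbp1 and Slc34a1, genes of the convoluted portion, stayed below 20. Of 6495 cells that could be assigned to a mouse, 199 met this rule. They came to 47 cells of mouse 1, 70 of mouse 2, 46 of mouse 3 and 36 of mouse 4.

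The kidneys were collected at E17.5 according to the sample labels, whereas the methods of the study give a later embryonic stage. Mice 1 and 2 were Trim28delta/delta, with both floxed Trim28 alleles recombined by an EGFP-cre fusion under the Six2 promoter, which acts in nephron progenitors and therefore in the epithelium derived from them. Mice 3 and 4 were Trim28f/f controls. The study compared these genotypes to ask how loss of Trim28, a co-repressor that silences retroelements and nearby genes, acts on the cell types of the kidney. The cells of each mouse carried a lipid-anchored DNA tag, were pooled after cold protease dissociation and were sequenced as a single library of transcript 3′ ends, so that free RNA of the suspension was shared by all cells of the pool. The pool also held cells of 4 tags that the authors' list does not name.

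The proximal tubule takes up sugars, amino acids, phosphate and filtered proteins and secretes organic acids and drugs. Its convoluted part carries most of the reabsorption of glucose and phosphate, while the straight part runs into the medulla, where transporters and detoxifying enzymes of another set are found. Straight segments mature late, and markers of this part are still sparse before birth. Of the genes used here, Aadat encodes a mitochondrial aminotransferase of kynurenine and lysine metabolism. Slc7a12 and Slc7a13 encode amino acid transporters, and Slc22a13 encodes an organic anion carrier. Fbp1 encodes a gluconeogenic enzyme, and Slc34a1 the sodium-phosphate cotransporter of the brush border.

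The promoters of Aadat and Slc22a13, which chose the cells, and of Akr1c18, Akr1c21 and Acsm3, which differed between genotypes, are shown so that the tubule factor motifs within them can be read. A RefSeq promoter was at hand for 13 of the 23 markers and called genes. Each line gives the 250 bases before the transcript start (GRCm38.p6), read 5′ to 3′ on the gene's strand. Capitals mark the core of HNF4 sites (CAAAGT) or a half-site of HNF1 (GTTAAT), searched on both strands. These are factors of proximal tubule maturation. Aadat (chr8:60505874-60506123, plus strand), Slc22a13 (chr9:119209106-119209355, minus strand), Akr1c18 (chr13:4150647-4150896, minus strand), Akr1c21 (chr13:4573825-4574074, plus strand) and Acsm3 (chr7:119760673-119760922, plus strand) read as follows.
Aadat: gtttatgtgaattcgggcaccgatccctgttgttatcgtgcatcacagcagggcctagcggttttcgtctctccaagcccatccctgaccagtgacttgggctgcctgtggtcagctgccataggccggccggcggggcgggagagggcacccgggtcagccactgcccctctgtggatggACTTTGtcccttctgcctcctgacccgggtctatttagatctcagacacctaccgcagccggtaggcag
Slc22a13: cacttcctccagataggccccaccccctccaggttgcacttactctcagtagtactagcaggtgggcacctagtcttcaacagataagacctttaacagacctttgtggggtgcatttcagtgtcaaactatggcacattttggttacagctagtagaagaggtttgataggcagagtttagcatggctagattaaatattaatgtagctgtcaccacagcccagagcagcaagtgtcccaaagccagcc
Akr1c18: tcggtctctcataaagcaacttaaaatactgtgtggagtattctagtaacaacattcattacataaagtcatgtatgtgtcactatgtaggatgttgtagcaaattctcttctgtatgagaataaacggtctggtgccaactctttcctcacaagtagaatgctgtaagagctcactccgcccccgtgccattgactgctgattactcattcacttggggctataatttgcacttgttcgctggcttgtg
Akr1c21: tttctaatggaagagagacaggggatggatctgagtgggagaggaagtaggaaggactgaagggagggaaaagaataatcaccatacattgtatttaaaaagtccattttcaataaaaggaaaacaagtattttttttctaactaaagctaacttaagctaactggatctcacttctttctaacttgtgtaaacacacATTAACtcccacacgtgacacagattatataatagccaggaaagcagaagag
Acsm3: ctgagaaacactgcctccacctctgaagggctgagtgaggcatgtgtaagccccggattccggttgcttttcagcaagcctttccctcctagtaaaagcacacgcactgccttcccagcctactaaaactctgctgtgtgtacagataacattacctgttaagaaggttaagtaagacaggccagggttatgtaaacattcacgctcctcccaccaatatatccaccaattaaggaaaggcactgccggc

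The Aadat promoter held the HNF4 core on the opposite strand, from 69 to 64 bases before the start. The Akr1c21 promoter held the HNF1 half-site on the opposite strand, from 52 to 47 bases before the start. No match was found in the windows of Slc22a13, Akr1c18 and Acsm3. Over 32851 RefSeq promoters of this length, 12.55% held the HNF4 core and 6.432% the HNF1 half-site, so a match is common and describes the letters only.

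The library held 550538685 gene UMIs in 3921239 barcodes. A minimum of 6890 UMIs was reached by 21386 barcodes, 19273 of them passed the filters on genes and mitochondrial UMIs, and 10098 of these carried a single dominant tag. The tag belonged to 1 of the 4 listed mice in 6495 cells, with 1168, 1289, 2490 and 1548 cells for mice 1 to 4. In the selected cells the summed depth lay between 829061 and 1726441 UMIs per mouse, and the median cell had 17927, 21378.5, 17260.5 and 19278.5 UMIs. Scrublet, a caller of doublets, marked 2, 3, 4 and 3 of these cells, which were kept. All levels below are CPM, the UMIs of a gene scaled to a common total after summing over the cells of a mouse. With 2 mice per genotype, p-values rest on the spread between these 4 embryos. For each gene edgeR, the tool of the gene tests, steadies that spread with the values of other genes.

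Mouse 3, a Trim28f/f control, stood apart from the other mice and is therefore described before the results. The median share of mitochondrial UMIs in its selected cells was 2.41%, against 4.32%, 4.22% and 4.64% in mice 1, 2 and 4. In its selected cells Aadat reached 443 CPM, against 1820, 1184 and 1425 CPM in mice 1, 2 and 4, and Serpina6 2.05 CPM against 113, 266 and 238 CPM. The summed level of 16 glycolysis genes was 9161 CPM against 4305, 4631 and 4673 CPM, and that of Ddit3, a transcription factor of the stress response, 174 CPM against 16.9, 24.3 and 26.5 CPM. High glycolysis gene levels were also seen in the remaining cells of this mouse (9734 CPM, against 4608 to 5053 CPM in the others). All 5 endothelial markers together came to 162 CPM in its selected cells and to 10.5, 20.9 and 16.9 CPM in mice 1, 2 and 4, with Emcn at 57.3 CPM. The stromal list was highest in mouse 2 (214 CPM, against 27.4, 66.5 and 9.65 CPM in mice 1, 3 and 4), beside 182 CPM in near-empty barcodes. The part of these differences in the genotype results was not tested.

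Within the rule, the cells differed widely in their marker content. The summed UMIs of the 4 marker genes ran from 6 to 180 in mouse 1 (median 24), from 6 to 197 in mouse 2 (median 18), from 6 to 29 in mouse 3 (median 10) and from 6 to 174 in mouse 4 (median 22). Cells with at least 50 marker UMIs numbered 17, 16, 0 and 13 in mice 1 to 4, and those with 6 to 9 numbered 10, 21, 18 and 9. Mouse 3 thus lacked the upper range that the other control and both mutants shared. At the threshold, 5, 7, 6 and 5 cells held exactly 6 marker UMIs, and 8, 15, 9 and 3 cells with 5 marker UMIs stayed outside. At the other limit, 0, 4, 3 and 2 cells inside had 18 or 19 UMIs of Fbp1 and Slc34a1, and 6, 2, 0 and 2 cells with 20 or 21 were left out.

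**Figure D1:**
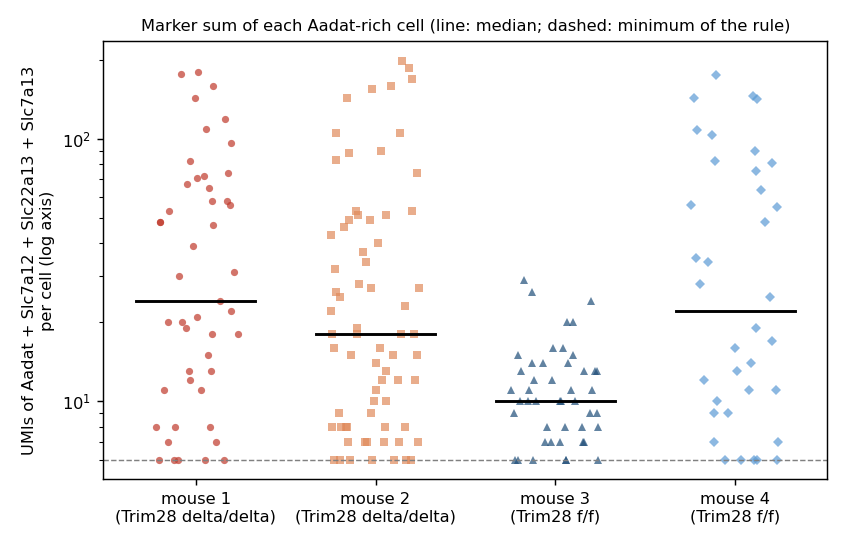
Marker UMIs per selected cell (log axis) for mice 1 and 2 (Trim28delta/delta) and mice 3 and 4 (Trim28f/f), with 1 point per cell, a line at the median and a dashed line at the minimum of 6. The medians are 24, 18, 10 and 22, and no cell of mouse 3 lies above 29.

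Aadat supplied most of what the rule read. Its share of the marker UMIs was 79.0%, 76.2%, 81.2% and 70.6% in mice 1 to 4, and 198 of the 199 cells held at least 1 of its UMIs. Slc22a13 was found in 142 cells, and Slc7a12 and Slc7a13 in 104 each. All 4 genes were present together in 18, 25, 2 and 16 cells of mice 1 to 4. The cells are therefore called Aadat-rich cells here. Outside the 3 proximal classes, Aadat was found in 21.6% of cells, and in 16.3% of 313 collagen-rich stromal cells, which should lack it (median depth 12441 UMIs, against 19274 in Aadat-rich cells). That share in stroma is a background level for a transcript at 83.6 CPM in near-empty barcodes. Slc7a12 was found in 1.6% of the stromal cells, and Slc22a13 and Slc7a13 in 2.88% each.

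Serpina6, which encodes the corticosteroid-binding globulin, is a marker of these cells that the rule did not read. It reached 113, 266, 2.05 and 238 CPM in mice 1 to 4. Its UMIs came from 12, 12, 2 and 9 cells, and a single cell of mouse 2 held 266 UMIs, 57.8% of that mouse's total. High levels were thus a property of few cells. It was found in 17.6% of Aadat-rich cells, in 4.38% of the cells outside the proximal classes and in 3.51% of stromal cells. Serpina6 was not among the genes, given below, that were at least 2-fold higher than in convoluted cells in every mouse. Across marker content, Serpina6 stood at 2.23 CPM in the 58 cells with 6 to 9 marker UMIs, at 20.7 CPM in the 59 cells with 10 to 19 and at 402 CPM in the 82 cells with 20 or more. Mouse 3 did not follow this order, with 2.45, 2.08 and 0 CPM, and the upper group held 180, 622 and 427 CPM in mice 1, 2 and 4.

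The label of straight tubule was checked against 20 further markers of this segment, by comparison with 286 convoluted cells of the same mice, which had at least 20 UMIs of Fbp1 and Slc34a1 and fewer than 6 marker UMIs. This contrast overlaps with the rule and was not tested. Genes were compared if they reached a mean of 50 CPM in the higher class, and counted if they differed by at least 2-fold in the same direction in all 4 mice. Of the 13 straight markers compared, only Aqp1 was higher and only Acy3, an aminoacylase gene, was lower. Over all genes compared, 1.4% were higher and 2.49% lower. The median log2 ratio of the 13 was -0.18, against 0.03 over all 3417 genes compared. Summed over the list, Aadat-rich cells held 2708, 2604, 1344 and 2716 CPM and convoluted cells 2858, 2628, 2098 and 1888 CPM, ranges that overlap. Double-positive cells, with at least 6 marker UMIs and 20 of Fbp1 and Slc34a1, held more in every mouse (4184, 3702, 3046 and 3089 CPM). Acy3 stood at 61.1, 38.8, 24.6 and 48.2 CPM in Aadat-rich cells and at 151, 111, 97.9 and 122 CPM in convoluted cells.

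Aqp1, the water channel of the proximal tubule and the thin descending limb, reached 292, 270, 170 and 290 CPM in Aadat-rich cells of mice 1 to 4, against 93.1, 85.7, 78.0 and 49.8 CPM in convoluted cells. In contrast, 13 of 14 convoluted markers were lower, with a median log2 ratio of -2.47, beside 2.49% lower over all 3417 genes compared. The limit on Fbp1 and Slc34a1 chose both classes, so that lower convoluted genes were built into this contrast. Of 19 genes of the whole proximal tubule, 5 were lower and 0 higher (2.49% and 1.4% over all genes compared). The megalin gene Lrp2 was still found at 621, 553, 527 and 755 CPM, against 1042 to 1337 CPM in convoluted cells and 60.7 to 107 CPM outside the proximal classes. Hnf4a, a transcription factor of proximal tubule maturation, stood at 115, 96.7, 82.9 and 102 CPM, against 129 to 172 CPM in convoluted cells and 16.2 to 22.4 CPM outside. The cells were thus proximal by these genes. Their straight identity, however, rested on Aadat and its partners and on low levels of convoluted genes. Both follow from the rule that chose the cells. The 4 thin descending limb genes together reached 168, 187, 125 and 122 CPM, against 17.5 to 32.8 CPM in convoluted cells. Outside the proximal classes they stood at 41.0 to 66.1 CPM. The 20 cell cycle genes summed to 959.5, 701, 1170 and 878 CPM, against 275 to 612 CPM in convoluted cells. The 3 loop of Henle genes overlapped, with 31.7 to 63.9 CPM against 22.1 to 94.5 CPM.

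Against convoluted cells, 48 of 3417 genes were at least 2-fold higher in Aadat-rich cells in every mouse (1.4%) and 85 were lower (2.49%). Because the rule chose the cells by expression, these are values and not findings of a test. The higher genes were led by Irx1, a homeobox gene of nephron patterning, with 120, 98.5, 260 and 228 CPM in mice 1 to 4, against 7.86, 5.0, 5.76 and 1.42 CPM in convoluted cells (30.2-fold as a geometric mean). Its level was higher in both control mice than in both mutants. In the genotype comparison below Irx1 was not called, and 19.1% of all genes counted were lower in both mutants. Foxc1, a forkhead factor gene, was 16.1-fold higher, with 121, 130, 185 and 142 CPM. Jag1, the Notch ligand of the early proximal nephron, was 7.89-fold higher, with 104, 131, 296 and 133 CPM. Mouse 3 was the highest of the 4 for each of these 3 genes.

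Among the other leading higher genes, Serpina10, which encodes an inhibitor of coagulation factors, stood at 62.2, 98.5, 13.3 and 60.3 CPM in mice 1 to 4 and at 0 to 2.50 CPM in convoluted cells. Plau, the gene of urokinase, was even across mice with 338, 278, 289 and 333 CPM, against 22.1 to 44.4 CPM. Corin, which encodes a protease that processes natriuretic peptides, stood at 101, 93.3, 35.8 and 60.3 CPM, against 2.42 to 3.1 CPM. Adamts16, a metalloprotease gene, was 5.23-fold higher. Ttr, which encodes the thyroxine carrier transthyretin, reached 366, 514, 162 and 374 CPM, against 146, 189, 16.8 and 27.8 CPM.

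The remaining leaders were 9130024F11Rik (27.9-fold), Cryab (27.2-fold), Arg2 (8.15-fold) and Cebpd (6.87-fold). Cryab, a small heat shock protein gene, reached 314, 510, 93.1 and 416 CPM in mice 1 to 4 and 4.38 to 15.7 CPM in convoluted cells. Single cells weighed on it as well, since 1 cell of mouse 4 held 62.6% of that mouse's Cryab UMIs. Arg2, which encodes the mitochondrial arginase, stood at 75.9, 73.6, 7.17 and 47.0 CPM, with mouse 3 again far below the others. Of 4 early proximal tubule genes, 3 were compared and 2 were higher, Jag1 and Cdh6 (1.4% over all genes compared). Cdh6, a cadherin gene of the early nephron, reached 386, 383, 327 and 475 CPM, against 126, 131, 147 and 158 CPM.

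The genes lower in Aadat-rich cells were led by Slc5a12. Slc5a12, a lactate carrier gene, was at 0, 1.74, 2.05 and 0 CPM in mice 1 to 4, against 62.2, 86.9, 33.7 and 109 CPM in convoluted cells. Gatm, which encodes the first enzyme of creatine synthesis, stood at 28.5, 33.6, 71.7 and 55.5 CPM, against 804, 872, 529 and 982 CPM. Cyp27b1, the gene of the enzyme that activates vitamin D, was 19.3-fold lower, and Acmsd, which encodes an enzyme that diverts tryptophan breakdown from NAD synthesis, 18.9-fold lower. Spp2, a gene of a secreted phosphoprotein, was 16.0-fold lower and Slc7a7, of a basolateral amino acid transporter, 13.0-fold lower. Miox, the inositol oxygenase gene, was 12.7-fold lower.

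The organic anion carriers Slc22a8 (9.69-fold lower) and Slc22a6 (9.01-fold lower) were also among the 12 leading lower genes, with Mfsd4b5 (10.3-fold), Erich4 (10.1-fold) and Cryl1 (9.57-fold). Slc22a6 stood at 32.7, 44.0, 39.9 and 56.7 CPM in mice 1 to 4, against 322 to 480 CPM in convoluted cells. Slc22a30, a family member on the straight tubule list, held 30.6, 27.2, 22.5 and 21.7 CPM, against 84.0, 55.0, 22.6 and 19.9 CPM in convoluted cells, with no common direction. Maf, a transcription factor gene of the proximal tubule, was 4.73-fold lower with 115, 184, 100 and 141 CPM.

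**Figure D2:**
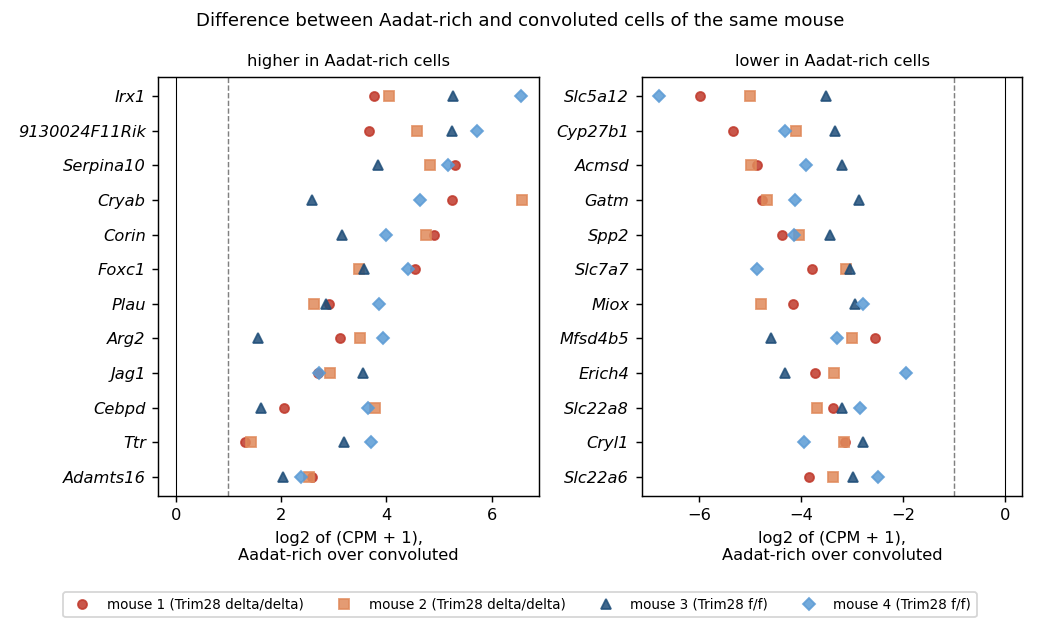
Log2 ratio of CPM + 1 between Aadat-rich and convoluted cells in each of the 4 mice (points) for the 12 leading genes higher and the 12 leading genes lower in Aadat-rich cells. Dashed lines mark the 2-fold limit, which each point of these genes passes because the limit was set in every mouse.

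Marker content divided the cells by further genes that the rule did not read. Over the cells of all 4 mice, Ttr stood at 21.5 CPM at 6 to 9 marker UMIs, at 119 CPM at 10 to 19 and at 829 CPM at 20 or more. Aqp1 followed the same order with 86.8, 174 and 440 CPM, and Agt, the angiotensinogen gene, stood at 2.23, 3.84 and 34.4 CPM. The order of Ttr was the same within each mouse, with 9.17, 64.4 and 1216 CPM in mouse 2 and 19.6, 187 and 685 CPM in mouse 3. Cell cycle genes ran the other way. The summed level of 20 such genes was 1323, 958 and 524 CPM, and Mki67 stood at 124, 69.1 and 20.8 CPM. Within mouse 4, however, the cell cycle list was highest in the middle group (1127, 2175 and 298 CPM), and in mouse 1 it was lowest there (2368, 391 and 671 CPM). Pooled over the mice, Cdh6 stood at 364, 399 and 399 CPM and Hnf4a at 88.3, 111 and 97.2 CPM. Within mice these levels varied more, with Cdh6 at 252, 397 and 286 CPM in mouse 3 and Hnf4a at 84.2, 196 and 101 CPM in mouse 1. These are descriptions without a test, over groups that held as few as 9 cells, and 5 cells of mouse 3 with 20 or more.

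Aadat-rich cells made up a larger share of the tagged cells in both mutants. The share was 4.02% in mouse 1 (exact 95% binomial interval 2.97% to 5.32%) and 5.43% in mouse 2 (4.26% to 6.81%), against 1.85% in mouse 3 (1.36% to 2.46%) and 2.33% in mouse 4 (1.63% to 3.21%). Intervals cover counting error only. The mean was 4.73% ± 0.995 (SD, n = 2) in Trim28delta/delta and 2.09% ± 0.339 (SD, n = 2) in Trim28f/f kidneys, a difference of 2.64 percentage points. The 2 and 2 mice did not overlap, but the exact two-sided permutation test gave p = 0.333, the smallest value this design allows. The difference was 1.24 points when cells were limited to the range of marker content found in mouse 3, an alternative added once the values were known. With fewer than 10 UMIs of Fbp1 and Slc34a1 it was 1.62 points.

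Convoluted cells and the 350 double-positive cells, which met both thresholds, were also more frequent in the mutants. Convoluted cells made up 5.82%, 5.35%, 3.82% and 3.49% of tagged cells in mice 1 to 4, and double-positive cells 10.2%, 8.30%, 2.41% and 4.13% (p = 0.333 for each, exact permutation test). Relative to these 3 proximal classes together, the share of Aadat-rich cells was 20.1%, 28.5%, 22.9% and 23.4%. Its means of 24.3% ± 5.92 and 23.1% ± 0.347 (SD, n = 2) differed by 1.14 points, less than the spread between the mutants (exact permutation p = 1.0). Among the same proximal cells, convoluted cells made up 29.1%, 28.1%, 47.3% and 35.1%, and double-positive cells 50.9%, 43.5%, 29.9% and 41.6%, and both separated the genotypes (p = 0.333 for each, exact permutation test). In either case a share cannot tell more Aadat-rich cells from fewer cells of other kinds. Both limits are counts of genes that may themselves differ between genotypes. Within the selected cells the log2 change was 0.69 for Aadat, 0.68 for Slc7a12, 0.40 for Slc22a13 and -0.25 for Slc7a13. For Fbp1 it was 0.90 and for Slc34a1 -0.57, all given as descriptions. The study reports lower Slc34a1 in mutant proximal tubule cells. The part of cells that crossed a limit was not tested.

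**Figure D3:**
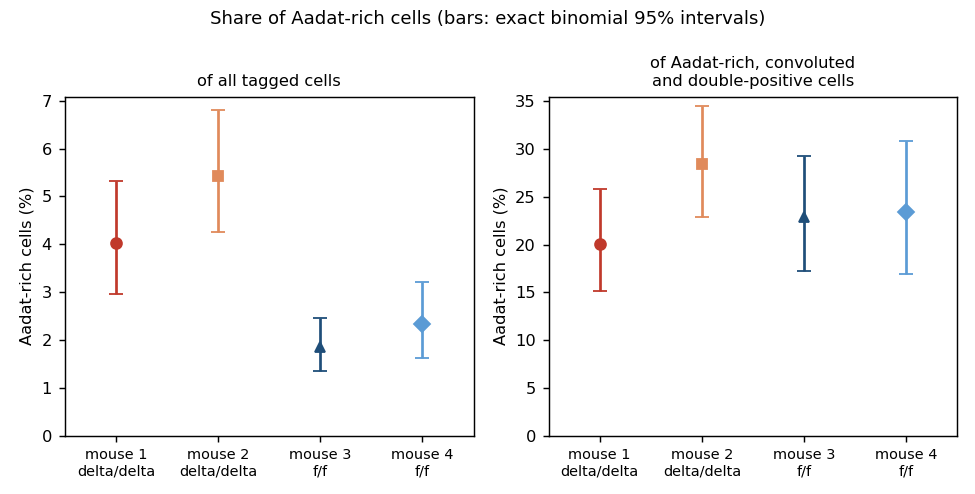
Share of Aadat-rich cells per mouse (points) with exact binomial 95% intervals (bars), as a percentage of all tagged cells (left) and of Aadat-rich, convoluted and double-positive cells together (right). Mice 1 and 2 lie at 4.02% and 5.43% and mice 3 and 4 at 1.85% and 2.33% on the left, whereas mouse 1 has the lowest share (20.1%) and mouse 2 the highest (28.5%) on the right.

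Trim28 itself stood at 33.7 and 30.1 CPM in the mutant cells, against 81.9 and 91.7 CPM in the controls, with no overlap. The log2 change of -1.46 (SE 0.24) did not pass the threshold in edgeR's quasi-likelihood F-test (adjusted p = 0.0933). With 1 mouse left out, the adjusted p was 0.673 without mouse 1, 0.999 without mouse 2, 4.18e-06 without mouse 3 and 1.19e-05 without mouse 4, in fits in which the lone mouse of a genotype is assumed to vary like the other genotype. The counted 3′ end lies outside the floxed segment, so these counts do not check the deletion itself. Near-empty barcodes held 115 CPM of Trim28, above the level in all 4 mice.

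Expression in Aadat-rich cells was then compared between genotypes, on counts summed per mouse. Of 8656 genes counted, 18 differed at an adjusted p under 0.05 (0.208%, edgeR's quasi-likelihood F-test, p-values adjusted by Benjamini and Hochberg). Higher in Trim28delta/delta cells were 17 genes (0.196%), and 1 gene, Vcan, was lower (0.0116%). All 18 separated the 2 mutants from the 2 controls, as did 20.5% of all genes counted in the higher and 19.1% in the lower direction. An unadjusted p under 0.05 was reached by 686 genes, and the median log2 change was -0.01. The 6 genes of the rule were not counted. Results depended on single mice and on the choice of cells. Without mouse 2 only Akr1c18, Acsm3 and Slc14a2 were called. Without mouse 1 the calls were 17, all higher, and 13 of them were among the 18. Without mouse 3, 98 were higher and 53 lower, and without mouse 4, 814 and 818.

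Akr1c18 had a log2 change of 5.45 between genotypes (SE 0.45, edgeR adjusted p = 0.0141). It encodes a hydroxysteroid dehydrogenase that inactivates progesterone, and lies on chromosome 13 from 4132615 to 4150654 (GRCm38, minus strand). It reached 261 and 190.0 CPM in mice 1 and 2, against 2.05 and 8.44 CPM in mice 3 and 4, where it rested on 2 and 7 UMIs. UMIs were found in 38 of 47 and 49 of 70 mutant cells and in 1 of 46 and 4 of 36 control cells, beside 3.83% of stromal cells and 11.2%, 12.8%, 3.5% and 3.73% of cells outside the proximal classes in mice 1 to 4. It was called under all 14 alternatives, with log2 changes between 4.71 and 6.68. Convoluted cells showed the same split, with 138, 110, 4.43 and 1.42 CPM.

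Akr1c21, a neighbour on chromosome 13 (4574075 to 4586541, plus strand) that encodes another steroid dehydrogenase of the family, also rose. Its level was 104 and 83.4 CPM in the mutants and 14.3 and 15.7 CPM in the controls, a log2 change of 2.62 (SE 0.29, edgeR adjusted p = 0.017). The call was lost with a tag share of at least 90% (adjusted p = 0.24), in the marker range of mouse 3 (log2 1.93, adjusted p = 0.129), with fewer than 10 UMIs of Fbp1 and Slc34a1 (adjusted p = 0.0618) and without mouse 2 (adjusted p = 0.0744). The remaining member that was tested, Akr1c19, did not pass the threshold (130 and 147 against 67.5 and 97.7 CPM, log2 0.75, edgeR adjusted p = 0.569). Of the 9 genes of the cluster 3 were abundant enough to be tested, with 2 higher and 0 lower (0.196% and 0.0116% over all genes). This list was chosen with earlier results of these data known and is therefore not independent. Reads of these closely related genes can be split between them, which makes the level of each uncertain.

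Acsm3, which encodes an acyl-CoA synthetase of medium-chain fatty acids and is listed as a straight tubule marker, rose from 3.07 and 1.21 CPM (3 and 1 UMIs) to 83.3 and 62.0 CPM. The log2 change was 4.95 (SE 0.46, edgeR adjusted p = 0.0141). Its locus overlaps Eri2 on the other strand. Acsm3 lost its call with cells in the marker range of mouse 3 (log2 3.34, edgeR adjusted p = 0.0517) and with fewer than 10 UMIs of Fbp1 and Slc34a1 (adjusted p = 0.0618). In convoluted cells Acsm3 stood at 9.06, 5.0, 2.22 and 0 CPM.

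Slc14a2, the gene of the urea transporter of the inner medulla, reached 67.5 and 48.1 CPM in the mutants and 3.07 and 2.41 CPM in the controls (log2 4.30, SE 0.44, edgeR adjusted p = 0.0148). It was carried by few cells. UMIs were found in 12 and 13 mutant cells, and the highest single cell of each mutant held 25 and 26 UMIs, or 39.1% and 31.3%. In cells of mouse 1 with 6 to 9 marker UMIs the level was 205 CPM, against 39.4 CPM in those with 20 or more. Slc14a2 belongs to a list of 4 thin descending limb genes, of which Fst was at 0 in all 4 mice and Epha7 and Bst1 did not pass the test. Epha7, an ephrin receptor gene, stood at 88.6, 136, 111 and 101 CPM, and was more than 2-fold above convoluted cells in every mouse. Slc14a2 lost its call with cells chosen after thinning (log2 2.29, edgeR adjusted p = 0.281), with at least 10 marker UMIs (log2 3.23, adjusted p = 0.072) and with fewer than 10 UMIs of Fbp1 and Slc34a1 (adjusted p = 0.0618).

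Ugt2b37, one of a family of glucuronosyltransferases, rose from 37.9 and 24.1 CPM to 176 and 200 CPM (log2 2.57, SE 0.28, edgeR adjusted p = 0.017). Reads of this gene too can be shared with near-identical family members. With a tag share of at least 90% the log2 change was 1.15 (edgeR adjusted p = 0.432), and without mouse 2 the adjusted p was 0.103. Mpv17l, which encodes a peroxisomal membrane protein, stood at 147 and 143 CPM against 26.6 and 27.7 CPM (log2 2.40, SE 0.24, adjusted p = 0.0141). Ly6e, a gene of a membrane-anchored protein induced by interferon, reached 616 and 635 CPM against 248 and 239 CPM (log2 1.35, SE 0.17, adjusted p = 0.0289). Mpv17l lost its call under 4 alternatives (adjusted p from 0.0517 to 0.104), among them leaving out mouse 2 (0.0905). Ly6e lost it under 6 (adjusted p from 0.0858 to 0.826), among them leaving out mouse 1 (0.392) and mouse 2 (0.826). None of the 8 genes tested from the interferon list was called, beside 0.208% of all genes counted.

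Spp1 and Vcam1, known from injured and regenerating tubules, were both called higher. Spp1, which encodes osteopontin, reached 447 and 378 CPM against 93.1 and 70.0 CPM (log2 2.32, SE 0.23, edgeR adjusted p = 0.0141). Spp1 UMIs were found in 72.3%, 70.0%, 71.7% and 61.1% of cells of mice 1 to 4, and in 49.5% of stromal cells. A single cell held 46.2% of the Spp1 UMIs of mouse 1, and another 24.1% of those of mouse 2. The call was lost under 5 alternatives, among them the marker range of mouse 3 (log2 1.82, adjusted p = 0.302). Vcam1, the gene of a vascular cell adhesion molecule, stood at 207 and 229 CPM against 53.2 and 28.9 CPM (log2 2.38, SE 0.30, adjusted p = 0.0289). It was found in 38 of 47 and 58 of 70 mutant cells and in 22 of 46 and 17 of 36 control cells. A Vcam1 UMI was also present in 39.9% of stromal cells. Outside the proximal classes it was present in 23.6%, 26.9%, 21.6% and 14.4% of cells in mice 1 to 4. The part of background in the share of control cells was not tested. Vcam1 lost its call with at least 10 marker UMIs (edgeR adjusted p = 0.0594), with fewer than 10 UMIs of Fbp1 and Slc34a1 (0.0682) and without mouse 2 (0.225).

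Among 18 injury and repair genes, 11 were tested, with 2 higher (Spp1 and Vcam1) and 0 lower, beside 0.196% higher and 0.0116% lower over all genes. The median log2 change of the list was -0.02, against -0.01 over all genes. Havcr1, a classic marker of injured proximal tubule, was at 0 in all 4 mice, which allows up to 3 UMIs per mouse. Krt8 stood at 393, 404, 411 and 415 CPM and Clu at 355, 369, 156 and 298 CPM, neither past the threshold. Slc34a1, which the study followed in proximal tubule cells of these mice, is a gene of the rule and not listed here. A list of 4 further genes that the study followed there, and which is therefore not independent, had 2 higher and 0 lower. Its other members were Prom1 (67.5, 80.5, 47.1 and 55.5 CPM, adjusted p = 0.626) and Kl. Kl, the klotho gene, stood at 23.2 and 28.4 CPM against 53.2 and 82.0 CPM (log2 -1.37, SE 0.29, edgeR adjusted p = 0.237), with no overlap between genotypes.

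C4bp, Scin, Gm49708 and Gm40663 completed the 12 higher genes of smallest adjusted p. C4bp, which encodes an inhibitor of complement, stood at 45.3 and 38.2 CPM against 3.07 and 2.41 CPM (log2 3.84). Its 43 UMIs in mouse 1 included 28 of a single cell. C4bp lost its call with at least 10 marker UMIs (edgeR adjusted p = 0.0594) and without mouse 2 (adjusted p = 0.0905), and was not tested with a tag share of at least 90%. Scin, a gene of an actin-severing protein, reached 66.4 and 85.7 CPM against 15.4 and 12.1 CPM (log2 2.46). Scin lost its call under 5 alternatives, among them leaving out mouse 2 (edgeR adjusted p = 0.187) and thinning (log2 1.03, adjusted p = 0.361). The processed transcript Gm49708 (236 and 305 CPM against 38.9 and 53.1 CPM) and the lincRNA Gm40663 (41.1 and 29.0 CPM against 2.05 and 1.21 CPM) have no described function. Gm40663 lost its call under 7 alternatives, among them leaving out mouse 1 and mouse 2 (edgeR adjusted p = 0.0883 and 0.0905) and thinning (log2 2.3). Gm49708 lost its call after thinning (adjusted p = 0.066) and without mouse 2 (adjusted p = 0.103). It was also at least 2-fold higher than in convoluted cells in every mouse.

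Meg3, a maternally expressed long noncoding RNA, was the single called member of 16 imprinted genes tested, with 1 higher and 0 lower (0.196% and 0.0116% over all genes). It reached 462 and 381 CPM against 71.7 and 22.9 CPM (log2 3.11, SE 0.42, edgeR adjusted p = 0.0415). Several other genes overlap its locus. Its call was lost with at least 10 marker UMIs (adjusted p = 0.0594), with fewer than 10 UMIs of Fbp1 and Slc34a1 (0.179), with a tag share of at least 90% (0.143) and without mouse 2 (0.0905). Without mouse 3 the log2 change was 4.2. Meg3 was found in 91.7% of stromal cells and at 129 CPM in near-empty barcodes. Gnas and Kcnq1ot1, the most abundant other members, stood at 895, 821, 620 and 852 CPM and at 262, 308, 302 and 349 CPM, neither past the threshold. The remaining called genes fell outside the rule for named genes and are given for completeness. Gm11100, which overlaps Thoc7 on the other strand, stood at 290 and 388 CPM against 31.7 and 4.83 CPM. One cell held 22 of its 31 UMIs in mouse 3, and without that mouse the log2 change was 6.13 in place of 4.14. Gm11100 lost its call with fewer than 10 UMIs of Fbp1 and Slc34a1, with a tag share of at least 90% and without mouse 2 (edgeR adjusted p = 0.0618, 0.0707 and 0.095). Gm47547, antisense to Dydc2, stood at 22.1 and 23.2 CPM against 1.02 and 1.21 CPM. Prnp, the prion protein gene, reached 87.5 and 75.9 CPM against 18.4 and 24.1 CPM. Both lost the call under 6 alternatives. Without mouse 1 and without mouse 2 the edgeR adjusted p was 0.349 and 0.999 for Gm47547 and 0.161 and 0.227 for Prnp.

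Vcan, which encodes a proteoglycan of the extracellular matrix, was the only gene called lower. It stood at 29.5 and 33.6 CPM in the mutants and at 119 and 146 CPM in the controls (log2 -2.06, SE 0.24, edgeR adjusted p = 0.0245). It was present in 14 of 47 and 25 of 70 mutant cells and in 28 of 46 and 21 of 36 control cells. One cell of mouse 4 held 32.2% of that mouse's UMIs. Vcan was also abundant outside the proximal classes, with 108, 112, 142 and 217 CPM, and in 66.1% of stromal cells, while near-empty barcodes held 63.4 CPM. It lost its call under 5 alternatives, among them leaving out mouse 1 (adjusted p = 0.253) and mouse 2 (adjusted p = 0.422).

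**Figure D4:**
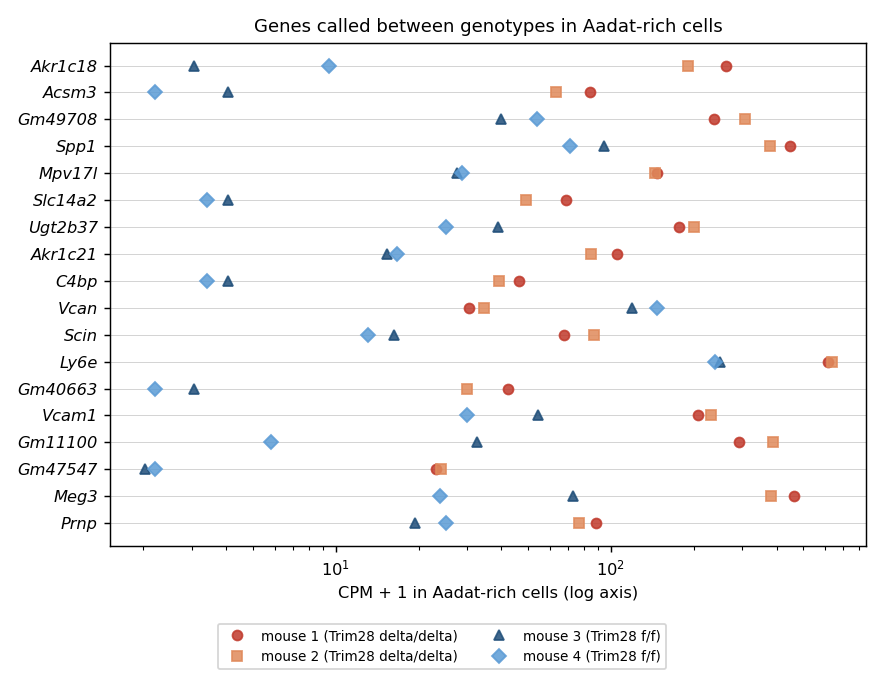
CPM + 1 (log axis) of the 18 genes called between genotypes in Aadat-rich cells, with a point for each mouse. In each row the 2 Trim28delta/delta mice lie on 1 side of the 2 Trim28f/f mice, to the right for 17 genes and to the left for Vcan.

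Of 36 lists of genes of tubule function, other cell types and processes, 7 held a called gene and 29 held none, 2 of which (endothelium and immune) had no gene abundant enough to be tested. The straight tubule list had 18 members tested, of which 1 (Acsm3) was higher and 0 lower (0.196% and 0.0116% over all genes), with a median log2 change of 0.37 against -0.01 over all genes. The sum over its 20 genes was 2708, 2604, 1344 and 2716 CPM in mice 1 to 4, low in control mouse 3 and as high in control mouse 4 as in the mutants. The convoluted list had 12 tested, with 0 called. All 36 lists were chosen with earlier results of these data known, and their counts are not independent of those. Of 8 genes tested for steroid binding and metabolism, 2 were higher and 0 lower (0.196% and 0.0116% over all genes), namely Akr1c18 and Akr1c21, which are also counted in their cluster. Nr3c1, the glucocorticoid receptor gene, stood at 63.3, 77.0, 124 and 79.6 CPM and did not pass the threshold.

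Several lists held differences that did not pass the threshold. All 4 collecting duct genes tested were lower in both mutants than in both controls, as were 19.1% of all genes counted. None of the 4 was called (0.208% of all genes counted), their median log2 change was -1.16 against -0.01 over all genes, and they had sums of 51.7, 61.4, 143 and 92.9 CPM in mice 1 to 4. The same genes summed to 613 CPM in near-empty barcodes, whose part in these sums was not tested. The 13 glycolysis genes tested had a median log2 change of -0.78, with 0 called, while the sum over all 16 genes of the list was highest in mouse 3. Defb29, the most abundant of 4 beta-defensin genes tested, stood at 252 and 243 CPM against 26.6 and 71.2 CPM (log2 2.36, SE 0.37, edgeR adjusted p = 0.0839). Of the Nat8 family of acetyltransferases 2 genes were tested. Nat8 stood at 63.3 and 37.7 CPM against 1.02 and 7.24 CPM (log2 3.61, SE 0.60, adjusted p = 0.0933), and Nat8f1 at 143, 90.9, 71.7 and 164 CPM, with overlap. The gene of the lysine and kynurenine aminotransferase, Aadat, was among those that chose the cells, and its log2 change of 0.69 (SE 0.45) is given as a description. With cells in the marker range of mouse 3 it was -0.03, without mouse 3 it was 0.081 and without mouse 4 it was 1.74.

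The genotype change differed between Aadat-rich and convoluted cells for 23 of 10420 genes (0.221%, edgeR's quasi-likelihood F-test of the interaction of class and genotype, with the mouse as a block and adjusted p-values). The log2 change in Aadat-rich cells minus that in convoluted cells was positive for 17 genes (0.163%) and negative for 6 (0.0576%). An unadjusted p under 0.05 was reached by 708 genes. The count was 6 without mouse 1, 181 without mouse 3, 298 without mouse 4, 1 with a tag share of at least 90% and 4 with fewer than 10 UMIs of Fbp1 and Slc34a1. Slc14a2, Ugt2b37, Vcam1 and Ly6e were called both here and by genotype. With a tag share of at least 90% none of the 6 genes named for the interaction kept its call. Without mouse 1, Cdkn1c, Slc14a2 and Vcam1 lost it (edgeR adjusted p = 0.337, 0.136 and 0.13), and Vcam1 also without mouse 2 (adjusted p = 0.106). After thinning the call was lost for Ugt2b37, Ugt2b34, Slc14a2 and Vcam1 (edgeR adjusted p = 0.101, 0.111, 0.355 and 0.0879). With fewer than 10 UMIs of Fbp1 and Slc34a1 it was lost for Ugt2b34, Slc14a2 and Vcam1 (adjusted p = 0.303, 0.0586 and 0.0586), and without Scrublet doublets for Cdkn1c (0.368).

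In convoluted cells Slc14a2 stood at 1.81, 3.13, 4.43 and 5.70 CPM in mice 1 to 4, near the 6.36 CPM of near-empty barcodes, and in double-positive cells at 3.56 to 6.58 CPM. Outside the proximal classes it stood at 15.3, 9.88, 2.76 and 5.41 CPM and was found in 8.03%, 8.82%, 3.63% and 5.24% of cells, higher in both mutants there too. The log2 change was larger by 5.33 in Aadat-rich cells (SE 0.77, edgeR adjusted p = 0.0141). The control cells of the Aadat-rich class held as little as convoluted cells did. Vcam1 stood at 157, 133, 107 and 56.2 CPM in convoluted cells, and its change was larger by 1.61 (SE 0.24, adjusted p = 0.019).

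Both glucuronosyltransferase genes were low in control Aadat-rich cells, but not in control convoluted cells. Ugt2b37 reached 286 and 300 CPM in convoluted cells of mice 1 and 2 and 273 and 136 CPM in those of mice 3 and 4, so that its change in Aadat-rich cells was larger by 2.09 (SE 0.23, edgeR adjusted p = 0.00138). Ugt2b34 stood at 32.7, 70.1, 10.2 and 4.83 CPM in Aadat-rich cells and at 66.5, 86.9, 77.1 and 110 CPM in convoluted cells (larger by 2.99, SE 0.43, adjusted p = 0.0141). By genotype alone Ugt2b34 did not pass the threshold (adjusted p = 0.149). In double-positive cells Ugt2b34 lay between both classes in mice 3 and 4, with 50.8 and 21.4 CPM.

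Ttr and Cdkn1c lay apart between genotypes in convoluted cells more than in Aadat-rich cells. Ttr stood at 146 and 189 CPM in convoluted cells of the mutants and at 16.8 and 27.8 CPM in those of the controls, whereas in Aadat-rich cells mouse 4 held 374 CPM, above the 366 CPM of mouse 1. The difference between classes in the log2 change was -2.12 (SE 0.22, edgeR adjusted p = 0.00138). Cdkn1c, an imprinted gene of a cell cycle inhibitor, was near 60 CPM in Aadat-rich cells of both genotypes (60.1, 45.2, 71.7 and 60.3 CPM). In convoluted cells it stood at 55.6 and 54.4 CPM in the mutants and 382 and 190 CPM in the controls, and the difference was 2.02 (SE 0.29, adjusted p = 0.0141). Podocyte markers moved with it, with all 4 genes summing to 14.5, 16.3, 198 and 68.3 CPM in convoluted and to 11.6, 15.6, 34.8 and 29.0 CPM in Aadat-rich cells. Their part in the result was not tested. Without the cells that Scrublet marked as doublets, the Cdkn1c difference was 1.73 and lost its call (edgeR adjusted p = 0.368).

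**Figure D5:**
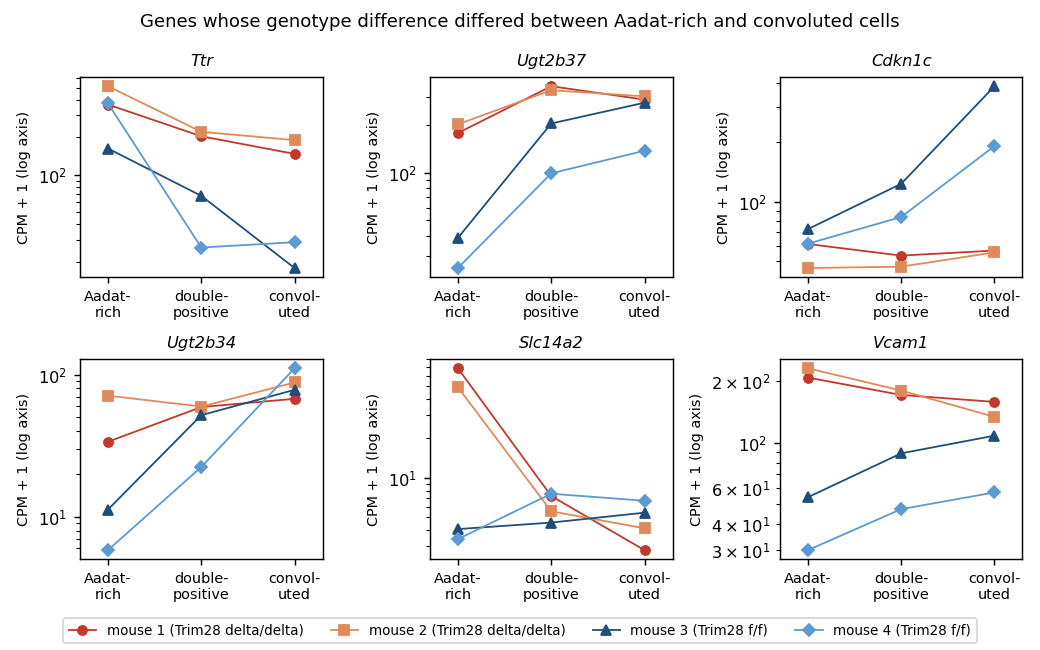
CPM + 1 (log axes that differ between panels) of the 6 genes with the smallest adjusted p of the interaction, in Aadat-rich, double-positive and convoluted cells, with a line for each mouse. Of the 3 classes drawn, Slc14a2 is higher in both mutants than in both controls in Aadat-rich cells only, while Cdkn1c and Ttr lie apart in convoluted cells and close together or overlapping in Aadat-rich cells.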

How the data were processed

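Single-cell RNA of a tagged pool of kidney cells, which included 4 listed mice, was profiled as transcript 3′ ends. The authors deposited raw gene and tag counts (UMI counts per barcode, not normalized) of 1 library, made with Cell Ranger 6.0.0 and the mouse genome GRCm38 per the labels' processing notes, in a matrix of all barcodes, empty ones included. Bulk samples of the series were not analysed here.

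Barcodes were kept from 6890 gene UMIs and 200 genes upward, unless mitochondrial UMIs exceeded 10%. A cell was assigned to a mouse if its top tag held at least 50 counts and at least 80% of the counts of 8 tags, and if the authors' tag list named it. Groups were taken from that assignment and the sample labels. UMI counts were summed per mouse and class. Genotypes were compared with edgeR 4.0.16 (R 4.3.3, TMM scaling, quasi-likelihood F-test, Benjamini-Hochberg adjusted p under 0.05), fitted over all genes that passed edgeR's filter on low counts. The interaction was fitted on 8 sums, with the mouse as a block. Shares carry exact (Clopper-Pearson) 95% binomial intervals, which cover counting error only, and were compared by an exact two-sided permutation test (scipy 1.17.1). Folds between classes used CPM + 1. Summed depth was 829061 to 1726441 UMIs per mouse. The tests were tried on simulated data with known changes first. That simulation gave every gene the same spread and held no outlying mouse or cell, so it does not cover such features of these data.

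Named were the 6 genes of the rule, the class markers and Trim28, the called or most abundant members of 36 gene lists, the 12 genes per direction with the smallest adjusted p by genotype and with the largest fold between classes, and the 6 with the smallest adjusted p of the interaction. The cells and lists were chosen with earlier results of these data known. Alternatives changed the marker limits, the tag share, the UMI minimum, doublets (Scrublet), thinning to 6800 UMIs before cells were chosen, scaling, the filter and the tool (DESeq2 1.42.0), and left out each mouse. P-values rest on the spread between these 4 mice only, which edgeR steadies for each gene with the values of other genes.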

Additional observations from a re-analysis of the deposited data

Results flagged for a closer look

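The 6 genes named for the interaction differed between Aadat-rich and convoluted cells in their genotype change, by the test of that difference in edgeR. The log2 change in Aadat-rich cells minus that in convoluted cells was -2.12 for Ttr, 2.09 for Ugt2b37, 2.02 for Cdkn1c, 2.99 for Ugt2b34, 5.33 for Slc14a2 and 1.61 for Vcam1. Over the alternatives it ran from -4.79 to -1.84 for Ttr, from 0.67 to 3.39 for Ugt2b37, from 1.55 to 2.36 for Cdkn1c, from 2.39 to 5.84 for Ugt2b34, from 3.25 to 6.03 for Slc14a2 and from 1.33 to 1.79 for Vcam1.

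Cells that carried a tag outside the authors' list were not used. Among them, 53 met the same expression rule. They made up 0.746%, 0.426%, 2.45% and 2.42% of the 938, 940, 816 and 909 cells of these 4 tags, above the 0.320%, 0.319%, 0.368% and 0.330% that a count of 0 allows. Their median marker sums were 20, 19, 23.5 and 22.5 UMIs. The labels used here give no group for these tags, so the cells entered no comparison.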

How the results depend on the processing

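The difference in the share of Aadat-rich cells was positive under every alternative that was run. It was 1.62 points with fewer than 10 UMIs of Fbp1 and Slc34a1, 3.51 points with cells chosen after thinning and 1.24 points in the marker range of mouse 3, and ran from 1.94 to 3.34 points when a mouse was left out. Higher and lower calls by genotype, 17 and 1, became 7 and 0 with at least 10 marker UMIs, 4 and 0 with fewer than 10 UMIs of Fbp1 and Slc34a1, 6 and 5 with a tag share of 90%, 20 and 2 without Scrublet doublets, 17 and 2 in the marker range of mouse 3, and 129 and 164 without the filter. They ran from 3 to 814 and from 0 to 818 when a mouse was left out (814 and 818 without mouse 4, 98 and 53 without mouse 3). DESeq2 called 25 and 1. The 18 calls kept their sign wherever they had a value. Of the 18, 11 were called in the marker range of mouse 3, 10 after thinning and 7 with a tag share of 90%. Interaction calls, 23 with the design as reported, were 4 with fewer than 10 UMIs of Fbp1 and Slc34a1, 1 with a tag share of 90%, 15 after thinning, 9 without doublets, 92 without the filter and from 6 to 298 with a mouse left out. Of the 23 interaction calls, only 5 were among the 15 made after thinning. In that setting 20 of the 23 kept their sign and 1 had no value. Genes at least 2-fold higher than in convoluted cells were 73 with fewer than 10 UMIs of Fbp1 and Slc34a1 and 78 with a 20 CPM minimum. Genes lower were 53 after thinning. The genes of the rule chose the cells, so their values are descriptions. The log2 change turned to -0.034 for Aadat in the marker range of mouse 3. With a tag share of 90% it turned to 0.30 for Slc7a13 and to -0.57 for Serpina6. With a mouse left out it ran from -0.25 to 3.54 for Slc7a12, from -0.15 to 1.16 for Slc22a13, from -1.15 to 2.19 for Slc7a13 and from -0.25 to 6.51 for Serpina6. The next counts cover the 18 called genes, Trim28, Serpina6, the 6 genes of the rule and the 6 genes named for the interaction. Over these, 332 values kept direction and side of the threshold. Of the other values, 87 lost a call, 12 gained one and 8 turned sign. All turns of sign among these values were of genes of the rule or Serpina6. Gains by genes of the rule are not read as results. The causes were not tested.

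With 1 mouse left out, the lone mouse of its genotype is assumed to vary like the other genotype. With 36 to 70 cells per mouse, genes carried by few cells, such as Slc14a2, C4bp and Serpina6, rest on single cells. No paired analysis was possible because the 4 mice carry the numbers 1 to 4, and none is shared between the genotypes.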

Other observations

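Peroxisomal, brush border and transport genes of Aadat-rich cells without a call by genotype are given here as values. Of 30 genes of peroxisomes and fatty acid oxidation 24 were tested, and the list summed to 3487, 3225, 2141 and 3372 CPM in mice 1 to 4. Acadm, which encodes a dehydrogenase of medium-chain fatty acids, stood at 679, 601, 284 and 692 CPM. Brush border genes and peptidases (15 of 19 tested) summed to 3548, 3074, 2210 and 3553 CPM, led by Mep1a, a meprin gene, with 879, 714, 371 and 838 CPM. Its level in convoluted cells was 556, 647, 454 and 469 CPM. Cltrn, a gene needed for surface transport of amino acid carriers, stood at 601, 482, 276 and 785 CPM. Gclm, which encodes a subunit of the enzyme that starts glutathione synthesis, ran differently, with 569, 400.2, 713 and 906 CPM and 291 to 389 CPM in convoluted cells.

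The 350 double-positive cells held intermediate levels of several genes. Irx1 stood at 24.6, 14.0, 33.9 and 39.0 CPM in mice 1 to 4, between Aadat-rich and convoluted cells in each mouse, and Gatm at 510, 507, 547 and 713 CPM, between both in mice 1, 2 and 4. Aqp1 stood at 150, 146, 131 and 146 CPM, also between both. These cells were deeper, with median UMIs of 27365, 31135, 35737.5 and 35674.5, against 17260.5 to 21378.5 in Aadat-rich cells. Scrublet marked 9 of 119, 9 of 107, 13 of 60 and 13 of 64 of them as doublets in mice 1 to 4. These were 7.56% and 8.41% in the mutants and 21.7% and 20.3% in the controls.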
